A study of Mus musculus with 11 samples.

Results

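The genes described here are the members of the endoplasmic reticulum (ER) stress and amino acid response, followed in the mouse small intestine. They were chosen by symbol from a list of 34 genes known for this response, and all 34 were found among the 24250 gene symbols of the expression table. The rule itself uses no measured value. Of the 34 members, 14 encode chaperones and folding enzymes of the ER lumen, 5 act in ER-associated degradation, 6 are stress sensors and the transcription factors they control, and 9 are targets of the transcription factor ATF4. A mean of at least 1 FPKM over all libraries was required for a test, and 32 members met it. The exceptions were Ern2, which encodes the epithelial form of the sensor IRE1, and Chac1, which encodes an enzyme that breaks down glutathione.

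RNA was sequenced from 11 libraries labelled as intestine, which the series text places in the small intestine. The FSP group, 4 libraries, is labelled with a traditional Chinese powder preparation that contains Poria, called FSP here, and with no diet, while the series title speaks of obese mice. The HFD group had 4 libraries and the ND group 3, read here as high-fat and normal diet. The labels name no strain, age, sex, dose, duration or stretch of gut. They also do not say whether each library is an animal of its own, so the p-values below weigh differences against the spread of these libraries alone, some of which may be technical.

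Proteins that enter the secretory pathway fold in the ER lumen with the help of chaperones and disulphide isomerases, and those that fail are drawn back into the cytosol for degradation. When unfolded proteins accumulate, the sensors IRE1, PERK and ATF6 raise the transcription of folding and degradation genes through XBP1 and the released ATF6 fragment. PERK, like the amino acid sensor GCN2, also phosphorylates the translation factor eIF2, which favours translation of ATF4 and thereby transcription of genes for amino acid synthesis and transport. In the intestine the pathway is best known for its work in goblet, Paneth and plasma cells, which secrete large amounts of protein.

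Expression was deposited as FPKM, a fragment count divided by gene length and by library total. Depth recovered from single-exon genes ranged from 3.18e+07 fragments in HFD 1 to 3.81e+07 in FSP 4. HFD 1 stood apart from the other libraries. The mitochondrially encoded protein genes took 40.4% of its summed FPKM, against 12.9% to 21.9% in FSP, 18.1% to 26.3% in HFD 2 to 4 and 16.3% to 22.2% in ND. In each group this share was highest in library 1 and fell with the library number, while the recovered depth rose with it. Because FPKM divides by the total of the library, a share as high as that of HFD 1 can lower the values of its other genes. How far it did so was not tested, and the comparisons with HFD were therefore also computed without HFD 1. Small intestinal epithelium markers were high in every library, with Vil1, a structural protein of the brush border, at 965 to 1159 FPKM in FSP, 738 to 927 FPKM in HFD and 830.0 to 938 FPKM in ND. Genes of pancreatic acinar cells, which are rich in ER, had a mean log2(FPKM + 1) of at most 0.03 in any library, and 0 of 8 met the filter.

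ER lumen chaperones were lower in HFD than in ND as a nearly complete group. Of the 14 genes, 12 fell and 0 rose, and in all 14 every HFD library lay below every ND library. The calnexin gene Canx and the BiP gene Hspa5 had the most negative log2 changes of the branch, while the disulphide isomerase genes Pdia3 and Pdia4 did not pass the test. In bulk tissue, fewer cells of a type and less RNA per cell cannot be told apart. All tests were limma's moderated test on log2(FPKM + 1) over 10296 genes, two-sided, with Benjamini-Hochberg adjustment and a threshold of 0.05. By that test 20.5% of all genes passed in HFD against ND, with 5.36% higher and 15.1% lower, and 33.6% of all genes had every HFD library below every ND library. Among all 32 members 16 were lower and 0 were higher.

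Promoters of many chaperone genes are known for a sequence called the ER stress response element (ERSE), the letters CCAAT and CCACG with 9 bases of any kind between them, which the general factor NF-Y and ATF6 or XBP1 bind together. RefSeq promoter windows on GRCm38.p6, from 250 bases before to 50 after the start, matched 29 of the 34 members, without Manf, Hyou1, Derl1, Ern2 and Atf6. The element was found on either strand in 7 of the 12 chaperone genes with a window and in the degradation gene Syvn1. Of all tested genes with a window 0.158% held it, beside 0.125% of their windows and 0.119% of all 32851 windows. The members are genes known for this response, so these shares describe them. The elements are shown to tell the genes with a match from the other members described below, read in the direction of the motif, with its fixed letters in capitals.
Hspa5: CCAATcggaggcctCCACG
Hsp90b1: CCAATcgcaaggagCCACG
Hsp90b1: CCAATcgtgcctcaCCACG
Creld2: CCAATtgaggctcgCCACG
Dnajc3: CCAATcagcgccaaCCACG
Calr: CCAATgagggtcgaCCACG
Canx: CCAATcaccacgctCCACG
Pdia6: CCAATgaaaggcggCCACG
Syvn1: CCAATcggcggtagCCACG

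In Hspa5 the element lay 65 to 47 bases before the start, and in Canx 145 to 127 bases before it. The related ERSE-II has the letters ATTGG and CCACG with 1 base of any kind between them, and shares the letters CCACG with ERSE. ERSE-II was found in Dnajb11 and Herpud1 among the members and in 0.0972% of the tested genes with a window. The XBP1 and ATF6 motif known as UPRE, TGACGTGG, was in 0 of the member windows, against 0.845% of those of tested genes, which says only that these letters are not in these windows. A match is a description of the sequence and not evidence of binding. The 250 bases before the start are printed for Canx and Hspa5, the chaperone genes with the most negative changes on the log2(FPKM + 1) scale, 5′ to 3′ on the strand of the gene with the match in capitals.
Canx (chr11:50325674-50325923, minus strand): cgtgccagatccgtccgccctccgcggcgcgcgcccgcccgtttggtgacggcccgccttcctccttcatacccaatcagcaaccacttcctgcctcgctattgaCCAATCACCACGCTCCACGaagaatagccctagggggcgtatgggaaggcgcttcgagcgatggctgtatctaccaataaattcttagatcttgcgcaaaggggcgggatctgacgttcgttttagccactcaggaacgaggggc
Hspa5 (chr2:34771840-34772089, plus strand): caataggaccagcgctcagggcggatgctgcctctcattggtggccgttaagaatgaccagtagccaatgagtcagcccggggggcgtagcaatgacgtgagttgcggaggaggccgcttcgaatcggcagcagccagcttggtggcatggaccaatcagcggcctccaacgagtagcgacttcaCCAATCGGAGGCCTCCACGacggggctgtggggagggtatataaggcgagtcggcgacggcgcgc

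Hspa5 encodes BiP, the Hsp70 chaperone of the ER, which also holds the sensors inactive. It measured 158, 121, 219 and 194 FPKM in the FSP libraries, 48.7, 106, 118 and 129.9 FPKM in the HFD libraries and 225, 239 and 228 FPKM in the ND libraries. HFD lay below ND without overlap, HFD 1 was the lowest of all, and FSP spanned the gap with FSP 2 inside the HFD range. The means were 101 ± 35.9 FPKM in HFD and 231 ± 7.63 FPKM in ND (SD, n = 4 and 3), a fold of 0.436 (log2 change −1.28 ± 0.30 (SE), limma adjusted p = 0.0135). Without HFD 1 the log2 change was −0.97 (limma adjusted p = 0.00864).

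Canx encodes calnexin, the membrane-bound lectin that holds glycoproteins during folding. It measured 87.6, 79.2, 109.7 and 129 FPKM in the FSP libraries, 21.5, 59.7, 62.2 and 55.8 FPKM in the HFD libraries and 184, 166 and 162 FPKM in the ND libraries. The groups did not overlap, with FSP between HFD and ND. HFD averaged 49.8 ± 19 FPKM and ND 171 ± 12 FPKM (SD, n = 4 and 3), so that HFD stood at 0.292 of ND (log2 change −1.86 ± 0.32 (SE), limma adjusted p = 0.00277). Calr encodes calreticulin, the soluble counterpart of calnexin, and measured 249, 252, 269 and 309 FPKM in the FSP libraries, 108, 210.3, 199.8 and 219.9 FPKM in the HFD libraries and 315, 323 and 307 FPKM in the ND libraries. Calr fell in HFD against ND (log2 change −0.82 ± 0.21 (SE), limma adjusted p = 0.0215), and the level of Canx per that of Calr, a ratio chosen after its values were seen and not tested, was 0.315 to 0.419 in FSP, 0.200 to 0.312 in HFD and 0.513 to 0.586 in ND.

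Manf, a secreted ER protein that binds BiP, and Creld2, a disulphide isomerase-like protein of the ER, separated all groups. Manf measured 123, 117, 135 and 129 FPKM in the FSP libraries, 64.9, 99, 97.6 and 96.4 FPKM in the HFD libraries and 169, 172 and 176 FPKM in the ND libraries. The groups were separate and ordered HFD, FSP, ND from low to high (log2 change −0.96 ± 0.15 (SE), limma adjusted p = 0.00177 for HFD against ND). Creld2 measured 18.9, 16.5, 20.1 and 19.3 FPKM in the FSP libraries, 7.41, 12.8, 13.1 and 14.2 FPKM in the HFD libraries and 22.2, 24.2 and 27.9 FPKM in the ND libraries, with the same order (log2 change −1.03 ± 0.19 (SE), limma adjusted p = 0.00376). Apart from HFD 1, the HFD libraries lay within 96.4 to 99 FPKM for Manf and within 12.8 to 14.2 FPKM for Creld2.

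The J-domain proteins that drive the ATP cycle of BiP fell too. Dnajb9, also known as ERdj4, measured 34.7, 54.2, 58.9 and 63.2 FPKM in the FSP libraries, 49.5, 45.8, 49.2 and 37.8 FPKM in the HFD libraries and 105, 86.6 and 98.7 FPKM in the ND libraries. Here HFD 1 was not the lowest of its group, and both FSP and HFD lay below all ND libraries (log2 change −1.07 ± 0.19 (SE), limma adjusted p = 0.00337 for HFD against ND). Dnajb11 averaged 19.1 ± 5.5 FPKM in HFD and 38.6 ± 1.12 FPKM in ND (SD, n = 4 and 3; log2 change −1.03, limma adjusted p = 0.0062). Dnajc3 averaged 13.3 ± 4.11 FPKM in HFD and 24.2 ± 1.36 FPKM in ND (SD, n = 4 and 3; log2 change −0.87, limma adjusted p = 0.0241). Sdf2l1, which works with these J-domain proteins, fell (log2 change −0.93, limma adjusted p = 0.0148).

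The remaining chaperone genes had the same direction. Hsp90b1, which encodes the ER form of Hsp90, measured 155, 139, 171 and 179.9 FPKM in the FSP libraries, 69.9, 136, 122 and 128 FPKM in the HFD libraries and 209, 206 and 184 FPKM in the ND libraries. HFD again lay below ND, and every FSP library lay above every HFD library (log2 change −0.85 ± 0.20 (SE), limma adjusted p = 0.0151 for HFD against ND). Hyou1, which encodes the nucleotide exchange factor of BiP, fell to 10.2 ± 3.49 FPKM in HFD, against 24 ± 1.19 FPKM in ND (SD, n = 4 and 3; log2 change −1.23, limma adjusted p = 0.0155). Among the disulphide isomerases, Pdia6 fell (log2 change −1.04, limma adjusted p = 0.0375), while Pdia3 had a log2 change of −0.48 (limma adjusted p = 0.085) and Pdia4 one of −0.67 (limma adjusted p = 0.0873).

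**Figure D1:**
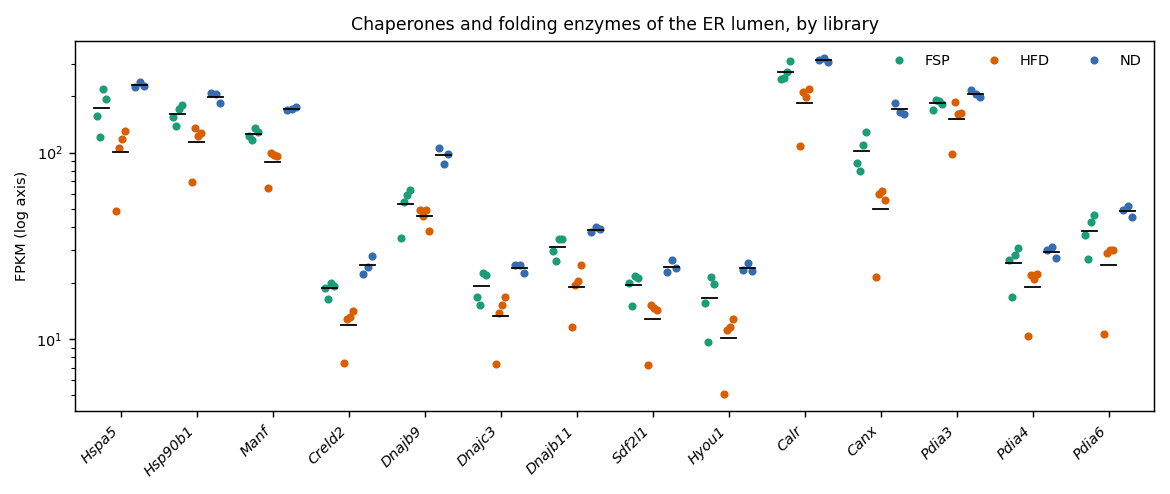
FPKM on a log axis for the 14 chaperone and folding genes in each library, with FSP, HFD and ND from left to right within a gene, a point per library and a black line at the group mean. In all 14 genes the HFD points lie below the ND points, and HFD 1 is the lowest point in each of them except Dnajb9.

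Over the branch, the median log2 change in HFD against ND was −0.99 (range −1.86 to −0.48), beside −0.21 over all tested genes and −0.63 over the 32 tested members. The mean log2(FPKM + 1) of the 14 genes was 5.57 to 6.03 in FSP, 4.56, 5.45, 5.46 and 5.49 in HFD and 6.25, 6.27 and 6.22 in ND. ND varied little, HFD 2, 3 and 4 were nearly equal, and HFD 1 lay far below them. Without HFD 1 the same number of chaperone genes fell, 12 of 14, with a median of −0.75. Scaling by median ratios, which turned the calls over all genes from 552 higher and 1557 lower to 1093 higher and 922 lower, left 12 chaperone genes lower with a median of −0.75. The count of 16 members past the threshold was 6 without ND 1, 5 without ND 2 and 13 without ND 3, and the genes called without each single library in turn were Manf, Creld2, Dnajb9, Dnajb11 and Canx.

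**Figure D2:**
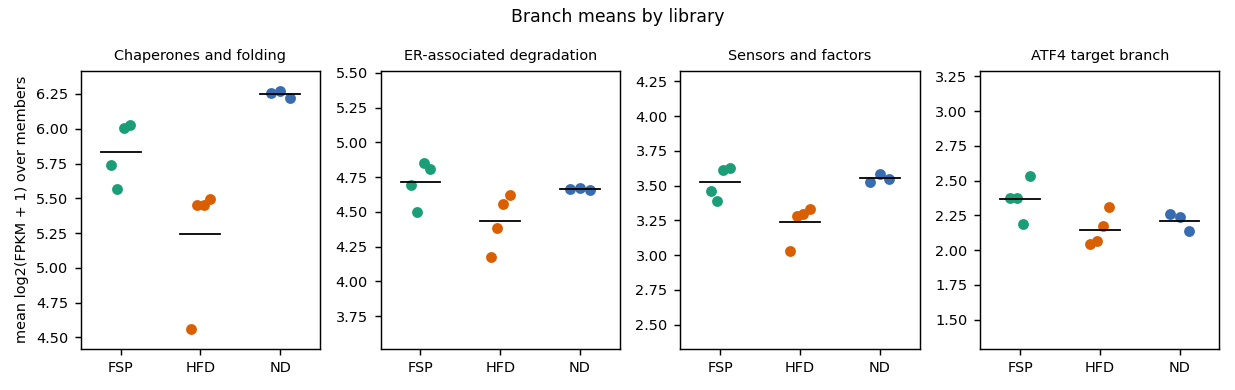
Mean log2(FPKM + 1) over the members of each branch in every library, with FSP, HFD and ND from left to right, a point per library and a line at the group mean; each panel spans the same height on the log2 scale. The chaperone means separate HFD from ND by the widest gap, and the ATF4 target means overlap between the groups.

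Markers of other cells and of gut position moved with the groups, and their part in the chaperone result was not tested beyond the values given here. B and plasma cells, which are rich in ER, had a mean marker level of 4.17, 3.52, 1.34 and 2.04 in FSP, 3.44, 3.45, 2.72 and 1.50 in HFD and 1.45, 1.35 and 1.32 in ND, on the log2(FPKM + 1) scale. In HFD, where the chaperones were lower, this level was above that of ND in every library, and HFD 4, at 1.50, had a chaperone mean of 5.49. Of the 11 genes of this list 8 met the filter. In HFD against ND 7 of these 8 had positive log2 changes, of which 0 passed, and the 1 negative change (−1.36) passed as lower. Paneth cell markers, all 6 at the filter, had mean levels of 3.29, 3.93, 2.97 and 3.38 in FSP, 3.55, 4.93, 3.44 and 3.10 in HFD and 4.04, 3.98 and 3.72 in ND, so that the mean lay below ND in each HFD library except HFD 2. The single markers did not share this direction in HFD against ND. Of their log2 changes 3 were positive and 3 negative, and the 1 marker that passed was higher. Colon markers, 2 of 4 at the filter, had mean levels of 0.99 to 1.41 in FSP, 1.04 to 1.38 in HFD and 2.07 to 2.13 in ND. Goblet cell markers, all 7 at the filter, had mean levels of 5.65 to 8.19 in FSP, 6.46 to 6.72 in HFD and 5.77 to 6.22 in ND. Smooth muscle markers, of the outer gut wall, had mean levels of 3.85 to 6.71 in FSP, 4.38 to 6.34 in HFD and 5.78 to 6.33 in ND.

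A position score, the mean of distal minus that of proximal small intestine genes, was 1.90, 1.93, 0.17 and 2.64 in FSP, −1.20, −0.70, −1.18 and −1.41 in HFD and 4.85, 3.72 and 1.83 in ND, so that HFD lay below every other library. ND 3, at 1.83, had a chaperone mean of 6.22, whereas FSP 1 and FSP 2, at 1.90 and 1.93, had 5.74 and 5.57. The genes of the score were uneven in HFD against ND. Of the 6 tested proximal genes 5 rose and 1 fell, while of the 7 distal genes 6 fell, with changes of that list from −9.66 to −0.23. With the score as a covariate 0 members and 0 of all tested genes passed in HFD against ND, and the median log2 change of the chaperones was −1.04. That fit had a larger SE, 0.72 for Hspa5 in place of 0.30, so the sign of a small change under it is uncertain. With the B and plasma cell level as a covariate 6 members passed. Of these, 5 were chaperones that were lower and 1 was the degradation gene Herpud1, which was higher. The median of the chaperones was −0.74. Diet and gut position cannot be told apart where the score separates HFD from ND.

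**Figure D3:**
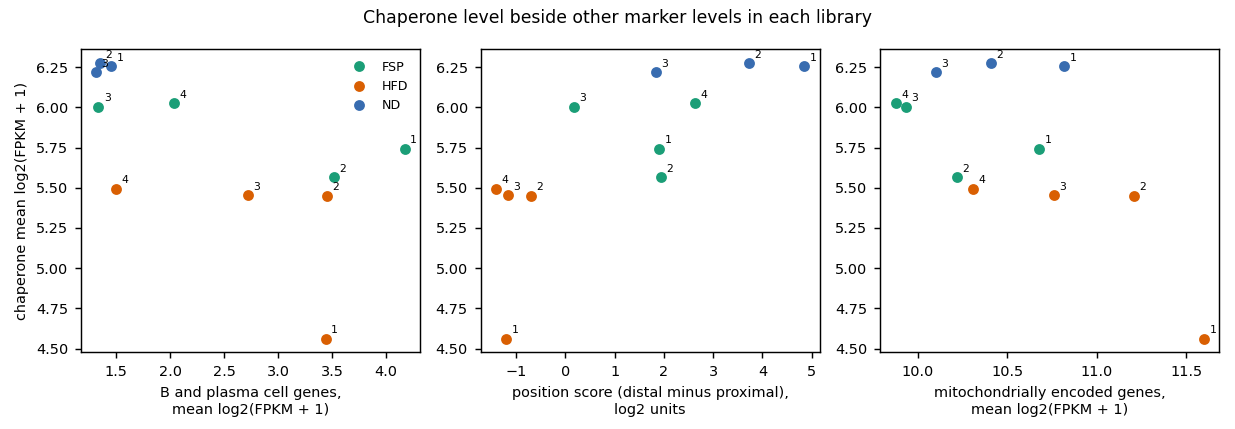
Chaperone mean log2(FPKM + 1) of each library (vertical) against its level of B and plasma cell genes, its position score and its level of mitochondrially encoded genes (horizontal, all in log2 units), coloured by group, the digits giving the library number. HFD 1 has the highest mitochondrial level and the lowest chaperone mean, and the ND libraries stay between 6.22 and 6.27 across position scores of 1.83 to 4.85.

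Chaperones in FSP lay between the other groups. Against HFD, 0 of the 14 passed the limma test, while 11 had an unadjusted p under 0.05, as had 14.8% of all tested genes in the higher direction, all 14 log2 changes were positive and their median was 0.60, beside 0.12 over all genes, of which 71.2% were positive. In this comparison 3.74% of all tested genes passed, with 2.83% higher and 0.913% lower, and 8.52% had every FSP library above every HFD library, as did 6 of the 14 chaperones. Canx averaged 101 ± 22.6 FPKM in FSP and 49.8 ± 19 FPKM in HFD (SD, n = 4 each; log2 change 1.10 ± 0.29 (SE), limma adjusted p = 0.0662), and its 95% interval ran from 0.45 to 1.74. Dnajb11, Creld2 and Manf had adjusted p of 0.0648, 0.0662 and 0.067 by limma, with log2 changes of 0.71, 0.65 and 0.51.

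Hspa5 had the next largest of these changes after Canx but overlapped between FSP and HFD (log2 change 0.83 ± 0.28 (SE), limma adjusted p = 0.132). Dnajb9 differed least of the branch (log2 change 0.18 ± 0.18 (SE), limma adjusted p = 0.636). Under median-ratio scaling, which gave 180 higher and 167 lower calls over all genes in place of 291 and 94, Creld2, Dnajb11 and Canx passed, as did the sensor gene Atf6. Without HFD 1 the median change of the chaperones was 0.36, and Canx was the chaperone that passed (log2 change 0.74, limma adjusted p = 0.0480). FSP is set against the same HFD libraries here that are set against ND above, so both sets of changes share samples.

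Against ND, 0 of the 32 tested members passed the limma test in FSP, where 1.03% of all genes did (0.699% higher and 0.33% lower), and 6 members had an unadjusted p under 0.05, a share near the 14.4% of all tested genes. All 14 chaperones had a negative log2 change, with a median of −0.36 beside −0.07 over all genes, and in 11 of them every FSP library was below every ND library, as in 10.9% of all tested genes. Dnajb9 came closest to the threshold, with 52.8 ± 12.6 FPKM in FSP and 96.9 ± 9.53 FPKM in ND (SD, n = 4 and 3; log2 change −0.89 ± 0.19 (SE), limma adjusted p = 0.0512). Manf had a log2 change of −0.45 (limma adjusted p = 0.18) and Canx one of −0.77 (limma adjusted p = 0.289).

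**Figure D4:**
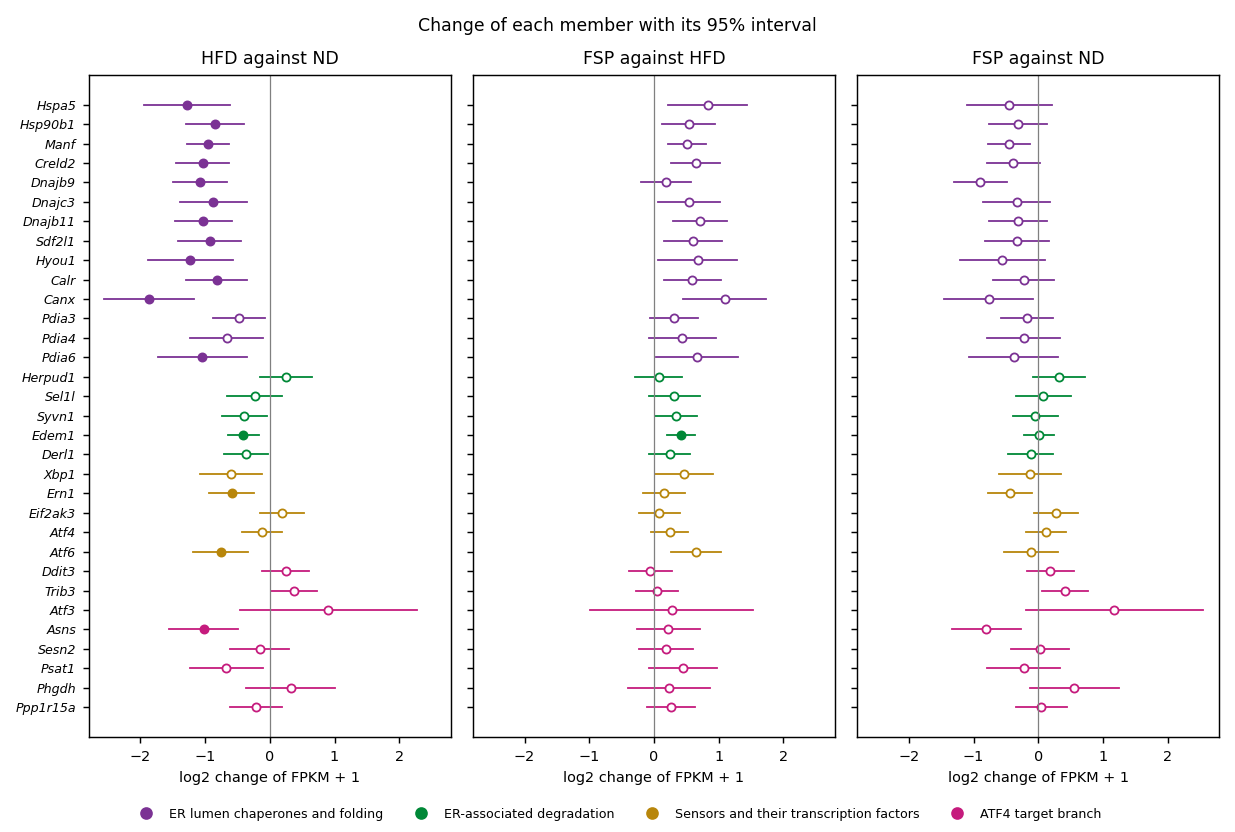
Log2 change of FPKM + 1 with its 95% interval for the 32 tested members in HFD against ND, FSP against HFD and FSP against ND, coloured by branch; filled points passed the limma test at an adjusted p of 0.05. Filled points are 16 in HFD against ND, all to the left of 0, then Edem1 alone for FSP against HFD, while the panel of FSP against ND has 0.

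Of the 5 degradation members, 1 fell in HFD against ND, where 15.1% of all tested genes were lower, with a branch median of −0.36, and Herpud1 had a positive log2 change. Edem1, a lectin that passes misfolded glycoproteins on for degradation, was the member that passed in both HFD comparisons. It measured 23.3, 23, 25 and 27.4 FPKM in the FSP libraries, 16.2, 17.3, 19.4 and 19.9 FPKM in the HFD libraries and 24.8, 23.9 and 24.7 FPKM in the ND libraries. All HFD libraries lay below those of the other groups, which overlapped each other. Edem1 fell in HFD against ND (log2 change −0.41 ± 0.11 (SE), limma adjusted p = 0.0219) and rose in FSP against HFD (log2 change 0.42 ± 0.10 (SE), limma adjusted p = 0.0422).

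Both calls of Edem1 depended on single libraries. The fall against ND did not pass when any of the ND libraries was left out, or under median-ratio scaling, and the rise in FSP did not pass when any of the 8 libraries compared was left out. In FSP against ND its means were 24.7 ± 2.00 FPKM in FSP and 24.4 ± 0.473 FPKM in ND (SD, n = 4 and 3; log2 change 0.01 ± 0.11 SE).

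Herpud1, a membrane scaffold of the degradation complex, is known as a target of both the ER stress and the ATF4 arms. Its promoter held a match to each, ERSE-II 52 to 42 bases before the start and, 112 to 105 bases before it, the C/EBP-ATF response element (CARE), TTNCATCA, which ATF4 dimers bind. It is printed because it carries both, with the matches in capitals.
Herpud1 (chr8:94386179-94386428, plus strand): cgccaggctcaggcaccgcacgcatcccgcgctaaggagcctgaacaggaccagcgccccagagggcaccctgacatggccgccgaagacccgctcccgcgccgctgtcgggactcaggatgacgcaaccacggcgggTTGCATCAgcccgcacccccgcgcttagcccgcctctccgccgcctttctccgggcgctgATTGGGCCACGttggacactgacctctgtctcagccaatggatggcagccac

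Herpud1 measured 39.9, 40.4, 54.5 and 53.6 FPKM in the FSP libraries, 35.2, 38.1, 50.2 and 57.3 FPKM in the HFD libraries and 34.2, 37.6 and 39.9 FPKM in the ND libraries. HFD overlapped both other groups, with HFD 1 and HFD 2 within the ND range and HFD 3 and HFD 4 above it (log2 change 0.25 ± 0.18 (SE), limma adjusted p = 0.325 for HFD against ND). Every FSP library lay above every ND library, as in 5.57% of all tested genes, with FSP 1 and ND 3 equal at the rounding shown. The change in FSP against ND did not pass (log2 change 0.32 ± 0.18 (SE), limma adjusted p = 0.448). For HFD against ND, the log2 change of Herpud1 under median-ratio scaling was 0.49 and it passed as higher (limma adjusted p = 0.0444). With the position score as a covariate the change in HFD against ND was −0.16 (limma adjusted p = 0.937). The level of Herpud1 per that of Hspa5, a ratio also chosen after its values were seen and not tested, was 0.249 to 0.333 in FSP, 0.360 to 0.722 in HFD and 0.152 to 0.175 in ND.

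The other degradation members did not pass in any comparison. Sel1l, the adaptor of the ubiquitin ligase, had log2 changes of −0.24 for HFD over ND, 0.32 for FSP over HFD and 0.08 for FSP over ND. Syvn1, the ligase HRD1 itself, had −0.39, 0.35 and −0.05 in the same comparisons. Derl1, a part of the exit channel, had −0.36, 0.24 and −0.12. Their limma adjusted p in HFD against ND were 0.385, 0.0978 and 0.115.

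Sensors and their factors split by gene. Atf6 and Ern1 fell in HFD against ND, while Xbp1, Eif2ak3 and Atf4 did not pass. Atf6 measured 5.42, 4.62, 5.98 and 7.42 FPKM in the FSP libraries, 2.23, 3.63, 3.75 and 3.96 FPKM in the HFD libraries and 7.41, 6.91 and 4.94 FPKM in the ND libraries. HFD lay below both other groups, HFD 1 lowest, and FSP overlapped ND. Its change was −0.76 in HFD against ND (0.19 SE, limma adjusted p = 0.019) and 0.65 in FSP against HFD (limma adjusted p = 0.0738). With the position score as a covariate the change in HFD against ND was −0.23 (limma adjusted p = 0.909).

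Ern1, which encodes the widely expressed form of IRE1, measured 2.13, 1.6, 2.44 and 2.79 FPKM in the FSP libraries, 1.47, 2.43, 1.95 and 1.79 FPKM in the HFD libraries and 3.66, 3.12 and 3.29 FPKM in the ND libraries. ND lay above all other libraries, and FSP and HFD overlapped (log2 change −0.59 ± 0.16 (SE), limma adjusted p = 0.0228 for HFD against ND). Its call did not pass when any of the ND libraries was left out. Ern2 stayed under the filter at 0.345 to 0.839 FPKM in FSP, 0.222 to 0.589 FPKM in HFD and 0.328 to 0.537 FPKM in ND, without separation of the groups.

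Xbp1, whose mRNA is spliced by IRE1 to make the active factor, measured 79.1, 66, 98.7 and 80.0 FPKM in the FSP libraries, 37.1, 58, 67.7 and 75.9 FPKM in the HFD libraries and 77, 89.5 and 98.3 FPKM in the ND libraries. HFD lay below ND without overlap, but the change did not pass (log2 change −0.60 ± 0.22 (SE), limma adjusted p = 0.0751). Values per gene do not separate the spliced from the unspliced form. Atf4, whose protein is raised mainly through translation, measured 126, 135, 114 and 96.8 FPKM in the FSP libraries, 111, 95.2, 94.2 and 95 FPKM in the HFD libraries and 93, 108 and 124 FPKM in the ND libraries. Its groups overlapped in every comparison, and the log2 change in HFD against ND was −0.12 (interval −0.43 to 0.19) and of the opposite sign, 0.13, under median-ratio scaling. Eif2ak3, which encodes PERK, had log2 changes of 0.19 in HFD against ND (interval −0.14 to 0.53), of the opposite sign at −0.28 with the position score as a covariate, and 0.08 in FSP against HFD (interval −0.23 to 0.40).

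ATF4 targets had no common direction. Of the 8 tested, 1 fell and 0 rose in HFD against ND, where 15.1% of all tested genes were lower and 5.36% higher. Among their log2 changes 4 were positive and 4 negative, and the median was 0.04. Asns, which encodes asparagine synthetase, was the gene that fell, and it measured 2.91, 3.17, 4.68 and 4.16 FPKM in the FSP libraries, 1.41, 3.24, 3.64 and 4.44 FPKM in the HFD libraries and 7.19, 7.58 and 6.7 FPKM in the ND libraries. ND lay above all other libraries, while FSP and HFD overlapped. HFD averaged 3.19 ± 1.28 FPKM and ND 7.15 ± 0.44 FPKM (SD, n = 4 and 3; log2 change −1.02 ± 0.24 (SE), limma adjusted p = 0.0138). The call did not pass without ND 1 or without ND 2, and in FSP against ND the change was −0.80 (limma adjusted p = 0.152).

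The CARE motif was found in 4 of the ATF4 target genes, Trib3, Atf3, Asns and Chac1, and in 2.3% of the windows of tested genes. In Asns it lay on the opposite strand, 23 to 16 bases before the start. The Asns promoter is shown because Asns is the ATF4 target that passed, with the match in capitals.
Asns (chr6:7693210-7693459, minus strand): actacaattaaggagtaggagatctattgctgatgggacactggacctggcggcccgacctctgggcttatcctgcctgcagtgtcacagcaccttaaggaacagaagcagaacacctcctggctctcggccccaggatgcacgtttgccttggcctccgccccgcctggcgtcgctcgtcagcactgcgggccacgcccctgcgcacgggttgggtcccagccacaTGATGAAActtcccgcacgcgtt

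Serine synthesis genes did not pass in the fit of all 3 groups. Psat1, the aminotransferase of that route, measured 3.03, 1.25, 3.4 and 3.72 FPKM in the FSP libraries, 0.87, 2.05, 2.05 and 2.12 FPKM in the HFD libraries and 3.68, 3.42 and 2.92 FPKM in the ND libraries. HFD lay below ND, and FSP 2 fell within the HFD range (log2 change −0.67 ± 0.26 (SE), limma adjusted p = 0.0852 for HFD against ND). Psat1 passed as lower in a fit of HFD and ND alone (log2 change −0.67 ± 0.20 (SE), limma adjusted p = 0.0445). Phgdh, the first enzyme of the route, had a change of the other sign in HFD against ND (0.32, limma adjusted p = 0.452), with overlapping groups.

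The stress genes of the ATF4 branch did not pass either. Trib3, a pseudokinase that restrains the branch, measured 11.4, 13.4, 8.01 and 9.15 FPKM in the FSP libraries, 10.7, 8.25, 10.2 and 10.9 FPKM in the HFD libraries and 6.75, 7.64 and 8.03 FPKM in the ND libraries. Every HFD library lay above every ND library, as in 9.28% of all tested genes, and FSP 3 lay within the ND range (log2 change 0.37 ± 0.16 (SE), limma adjusted p = 0.121 for HFD against ND). Ddit3, which encodes the factor CHOP, had a log2 change of 0.24 in HFD against ND (limma adjusted p = 0.288), and −0.10 with the position score as a covariate. Sesn2, a stress-induced regulator of growth signalling, and Ppp1r15a, which encodes the eIF2 phosphatase subunit GADD34, had changes of −0.16 and −0.21 (limma adjusted p = 0.58 and 0.403), and that of Ppp1r15a was 0.60 with the position score as a covariate.

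Atf3, an early stress factor, had the largest standard error of the tested members. It measured 10.2, 74.8, 7.12 and 32 FPKM in the FSP libraries, 24, 9.36, 16.7 and 22.4 FPKM in the HFD libraries and 8.89, 8.64 and 8.47 FPKM in the ND libraries. HFD lay above ND without overlap, and FSP 2 and FSP 4 stood far above FSP 1 and FSP 3. The change in HFD against ND did not pass (log2 change 0.91 ± 0.62 (SE), limma adjusted p = 0.299), nor did it in a fit of HFD and ND alone, where it was 0.91 ± 0.28 (SE, limma adjusted p = 0.0508). In FSP against HFD the log2 change of 0.27 was −0.33 without FSP 2. Chac1 measured 0.677, 0.312, 0.502 and 0.233 FPKM in the FSP libraries, 0.18, 0.0566, 0 and 0.12 FPKM in the HFD libraries and 0.47, 0.487 and 0.206 FPKM in the ND libraries. These levels were below the filter and were not tested.

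**Figure D5:**
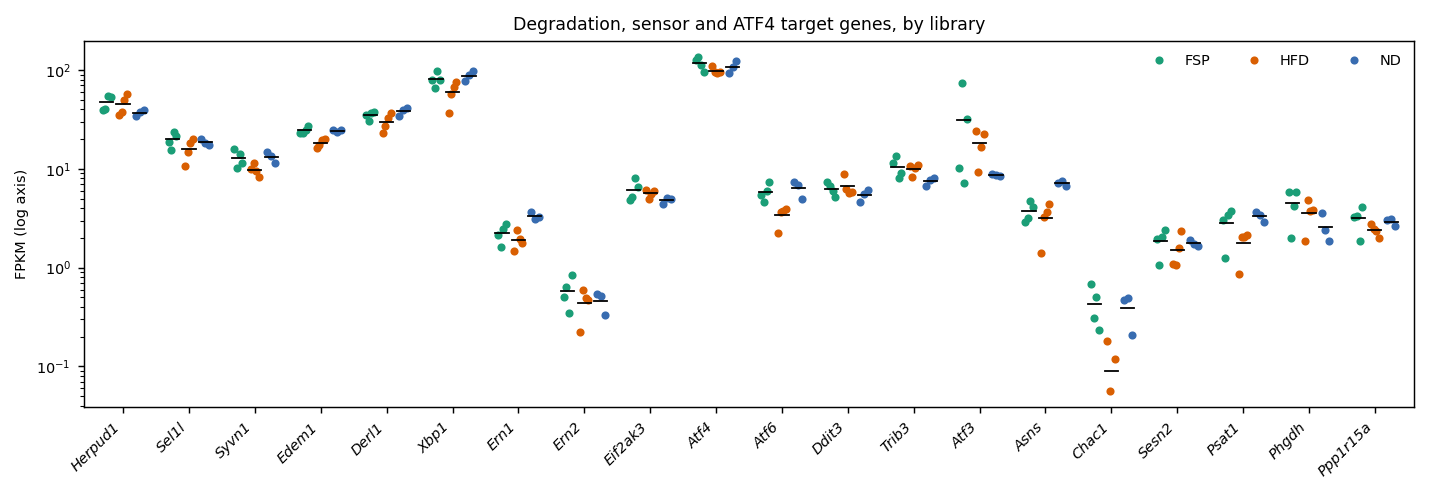
FPKM on a log axis for the degradation, sensor and ATF4 target members in each library, with FSP, HFD and ND from left to right within a gene, a point per library and a black line at the group mean. Atf6, Ern1 and Asns have HFD points below all ND points, Atf3 spreads from 7.12 to 74.8 FPKM in FSP, and the value of 0 for Chac1 in HFD 3 cannot be drawn on this axis.

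Other genes of the same pathways were read from lists that hold no member. Median-ratio scaling moved the median log2 change of all tested genes in HFD against ND from −0.21 to −0.01, so each list's split under it is given too. Among 19 tested ER folding enzymes outside the members, 1 rose and 3 fell in HFD against ND. These counts are near the shares over all tested genes, 5.36% higher and 15.1% lower. The median of the list was −0.34, and under median-ratio scaling 1 rose and 2 fell, with a median of −0.09. P4hb, the disulphide isomerase that is also a subunit of the triglyceride transfer complex, was the gene that rose. It measured 892, 1052, 1305 and 922 FPKM in the FSP libraries, 919.8, 922, 1275 and 1521 FPKM in the HFD libraries and 525, 649 and 801 FPKM in the ND libraries. All HFD libraries lay above all ND libraries, in the opposite direction to the member isomerases (log2 change 0.80 ± 0.22 (SE), limma adjusted p = 0.0263), and the call did not pass without HFD 3, HFD 4, ND 1 or ND 2. Uggt1, the glycoprotein folding sensor, and Dnajc10, an ER reductase, fell (log2 changes −0.68 and −0.62, limma adjusted p = 0.0224 and 0.0206). In FSP against HFD, where 2.83% of all tested genes were higher, 1 gene of this list rose, the prolyl isomerase Fkbp11 (log2 change 0.65, limma adjusted p = 0.0464). Its call did not pass when any library compared was left out.

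Among 25 tested genes for the translocon, the signal peptidase and traffic between ER and Golgi, 3 rose and 10 fell in HFD against ND. Over all tested genes 5.36% were higher and 15.1% lower. The median of the list was −0.31, but 8 rose and 3 fell under median-ratio scaling, with a median of −0.06. Sec61a1, the channel of the translocon, fell (log2 change −0.81, limma adjusted p = 0.00686), as did the signal peptidase subunit Spcs2 (−0.54, limma adjusted p = 0.00734). Kdelr3, a receptor that returns escaped ER proteins from the Golgi, went the other way and measured 4.49, 8.45, 10.5 and 6.03 FPKM in the FSP libraries, 17.5, 9.13, 12.8 and 14.7 FPKM in the HFD libraries and 1.28, 1.39 and 1.88 FPKM in the ND libraries. ND was lowest without overlap, and FSP overlapped HFD with a lower mean. Kdelr3 rose to 13.5 ± 3.51 FPKM in HFD, against 1.52 ± 0.32 FPKM in ND (SD, n = 4 and 3), 8.91-fold (log2 change 2.50 ± 0.26 (SE), limma adjusted p = 0.000362), a call that passed without each single library.

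In FSP against ND Kdelr3 rose as well, 4.84-fold (log2 change 1.68 ± 0.26 (SE), limma adjusted p = 0.0134), and it was the gene of these pathway lists that passed in that comparison; the call did not pass without ND 1 or without ND 2. The other risen genes in HFD against ND, named after their values were seen, were the COPII coat genes Sec24d and Sec31a (log2 changes 0.92 and 0.50, limma adjusted p = 0.0163 and 0.0474), and Sec31a did not pass when any library was left out. Of 22 tested degradation genes outside the members, 0 rose and 5 fell in HFD against ND, beside 5.36% higher and 15.1% lower over all genes. Their median was −0.27, and under median-ratio scaling 1 rose and 2 fell, with a median of −0.04. Nploc4, a cofactor of the extraction ATPase, Ngly1, which removes glycans from extracted proteins, and the oligosaccharyltransferase subunit Stt3b had log2 changes of −0.86, −0.57 and −0.73 (limma adjusted p = 0.015, 0.0152 and 0.0337).

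Of 19 further ATF4 targets tested in HFD against ND, 2 rose, 1 fell and 16 did not pass, no more than the 20.5% of all genes past the threshold, and the median was 0.08. Under median-ratio scaling 6 rose and 0 fell, with a median of 0.29. Ddit4, a stress-induced inhibitor of mTOR signalling, measured 11.6, 8.83, 7.24 and 8.5 FPKM in the FSP libraries, 11.2, 9.86, 9.93 and 9.03 FPKM in the HFD libraries and 4.77, 6.19 and 5.57 FPKM in the ND libraries and rose in HFD against ND (log2 change 0.76 ± 0.15 (SE), limma adjusted p = 0.00578). All HFD libraries lay above all ND libraries. The transcription factor gene Cebpb rose (log2 change 0.57, limma adjusted p = 0.0145) and the amino acid transporter gene Slc38a2 fell (−0.50, limma adjusted p = 0.0457), but Slc38a2 did not pass when any library other than HFD 2 was left out.

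Cytosolic aminoacyl-tRNA synthetases, many of which ATF4 raises under stress, had a median log2 change of −0.48 in HFD against ND. Of the 20 tested, 6 fell and 0 rose, where 15.1% of all tested genes were lower. All log2 changes of the list were negative, as were 71.5% of those over all tested genes. Under median-ratio scaling 6 fell and 0 rose, 17 of the 20 changes were negative beside 51% over all tested genes, and the median was −0.27. Nars, the asparaginyl-tRNA synthetase gene, measured 90.7, 96, 116 and 129.8 FPKM in the FSP libraries, 53, 80.4, 78.5 and 72.9 FPKM in the HFD libraries and 134, 134 and 144 FPKM in the ND libraries. HFD lay below every other library, and FSP lay below ND (log2 change −0.95 ± 0.17 (SE), limma adjusted p = 0.00318 for HFD against ND). Qars fell in HFD against ND (log2 change −0.86 ± 0.18 (SE), limma adjusted p = 0.00734) and rose in FSP against HFD (log2 change 0.72 ± 0.17 (SE), limma adjusted p = 0.0391), and the second call passed without HFD 2 but not without any of the other libraries compared. Tars had a log2 change of −1.01 in HFD against ND (limma adjusted p = 0.0138).

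Among 16 tested sensors and stress machinery genes outside the members, 2 rose and 3 fell in HFD against ND. Over all tested genes 5.36% were higher and 15.1% lower. The median of the list was −0.34, and under median-ratio scaling 3 rose and 3 fell, with a median of −0.10. Eif2ak2, which encodes the RNA-activated eIF2 kinase PKR, fell (log2 change −0.92 ± 0.15 (SE), limma adjusted p = 0.00228), a call that passed without each single library. Atf6b, the paralogue of Atf6, fell (−0.70, limma adjusted p = 0.0193), as did the adaptor gene Nck1 (−0.65, limma adjusted p = 0.0106). The membrane-bound factors Creb3l3 and Creb3l2, named after their values were seen, rose (log2 changes 0.80 and 1.01, limma adjusted p = 0.0224 and 0.0471). Creb3l3, known in liver and gut for control of lipid genes, did not pass without HFD 3, ND 1 or ND 2, and Creb3l2 did not pass without HFD 3, HFD 4, ND 1 or ND 2.

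Of the pathway genes named in HFD against ND, Kdelr3, Sec61a1, Spcs2, Ddit4, Nars, Qars and Eif2ak2 passed without each single library. Nck1 and Ngly1 did not pass without ND 1, Atf6b without ND 2 or ND 3, and Nploc4, Cebpb, Sec24d, Dnajc10 and Tars without ND 1 or ND 2. Uggt1 and Stt3b did not pass when any ND library was left out. With the position score as a covariate, the log2 changes of the risen genes P4hb, Sec24d, Sec31a, Creb3l3 and Creb3l2 were negative, and that of Kdelr3 was 1.48 (limma adjusted p = 0.730). The negative changes, from −0.40 ± 0.31 (SE) for Creb3l3 to −0.12 ± 0.33 (SE) for Sec31a, did not pass. Spcs2, Ngly1 and Slc38a2 did not pass under median-ratio scaling.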

How the data were processed

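Total RNA was taken from mouse small intestine with TRIzol and made into libraries with the VAHTS Universal V6 kit, per the labels. The tools fastp, HISAT2 and HTSeq, R 3.2.0 and the build mm10 appear in the submitters' processing notes, which list tools without their order; no annotation or use of strand is named there. The authors deposited FPKM values per gene and library. The single-library tables held the same values as the table of all libraries. No counts were used, and whole fragments were recovered for 694 single-exon genes to estimate depth, with 0.05 as the tolerance.

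The test was limma 3.58.1 (R 4.3.3) on log2(FPKM + 1), in a single fit of the 3 groups with an intensity trend and no covariate, over genes with a mean of at least 1 FPKM. A log2 change on this scale understates the change of low genes. Group means and folds are of FPKM. Groups and replicate numbers come from the sample titles. The fit was tested on simulated data. All members are named, and from each pathway list up to 3 genes with the smallest p among those past the threshold in a comparison; other names are marked. The members and lists were chosen with earlier results of these data known. Promoter sequences are from RefSeq, GRCm38.p6. Genes with antisense partners or near-identical copies are uncertain where reads could be shared.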

Additional observations from a re-analysis of the deposited data

Results flagged for a closer look

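In 12 of the 68 combinations of a member with HFD or FSP, 1 library lay outside the 95% critical value of Dixon's test for its group of 4, where chance gives about 1 in 20. All 12 were HFD 1, the library with 40.4% of its FPKM in mitochondrially encoded genes. In 11 it was the low library: Hsp90b1 at 69.9 FPKM, Manf at 64.9, Creld2 at 7.41, Sdf2l1 at 7.23, Hyou1 at 5.06, Calr at 108, Canx at 21.5, Pdia4 at 10.4, Pdia6 at 10.7, Atf6 at 2.23 and Psat1 at 0.87 FPKM. In Atf4 it was the high library, at 111 FPKM beside 94.2 to 95.2 FPKM in the other HFD libraries. Without HFD 1, 16 of the 32 tested members passed in HFD against ND.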

How the results depend on the processing

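The alternatives were other filters, pseudocounts, scalings and covariates, a fit of the compared groups alone, a replicate block, and each library left out. In HFD against ND, with 16 members past the threshold, the count was 0 with the position score and 6 with the B and plasma cell level as a covariate, and 5 to 17 with 1 library left out. In FSP against HFD, with 1 past it, the count was 0 without the filter, with equal FPKM totals with or without mitochondrially encoded genes, without the intensity trend, with the 2 compared groups alone and with the position score. It was 3 with a filter at 5 FPKM, 4 with median-ratio scaling, 4 with quantile normalization, 7 with the B and plasma cell level, and 0 to 1 with 1 library left out. That 1 was Canx without HFD 1 and Dnajb11 without HFD 4, and not Edem1. In FSP against ND, with 0 past it, the count was 1 with the filter at 5 FPKM, with quantile normalization, with equal totals without mitochondrially encoded genes and with the B and plasma cell level, and 2 with median-ratio scaling without HFD 1, chosen after seeing the data. With the position score, the changes in HFD against ND took the opposite sign for Creb3l2 (−0.26 ± 0.65 SE), Creb3l3 (−0.40 ± 0.31), P4hb (−0.23 ± 0.39), Sec24d (−0.38 ± 0.33) and Sec31a (−0.12 ± 0.33), which had passed. The sign also changed for the members Herpud1 (−0.16 ± 0.42), Eif2ak3 (−0.28 ± 0.34), Ddit3 (−0.10 ± 0.38) and Ppp1r15a (0.60 ± 0.35), which had not. Their limma adjusted p with the score were 0.768 to 0.962. The score separates HFD from ND, so these values do not establish a reversal. Over all tested genes, the number past the threshold across settings was 0 to 2357 in HFD against ND (2109 as reported), 0 to 694 in FSP against HFD (385) and 11 to 192 in FSP against ND (106). The cause of these shifts was not tested. With a replicate block the counts were 18, 1 and 0 in the 3 comparisons, and the 1 in FSP against HFD was Dnajb11 in place of Edem1. Libraries that shared a number had correlations of −0.0994 to 0.454 between their deviations, over 0.1 in 5 of 10 pairs, and the main fit did not take the numbers as pairs. In each group, however, the mitochondrial share fell and the recovered depth rose with the number. The source of this shared order was not tested. Depth limits the values of Ern2 and Chac1, whose means are under 1 FPKM.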
